A study of Mus musculus with 15 samples.

Results

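The genotype by MC903 interaction in mouse skin was measured gene by gene, as the MC903 response in skin labelled Trpv3-knockout minus the MC903 response in wild type skin. It drew on 12 of the 15 samples of the series, all of skin, with 3 libraries in each of 4 groups: wild type untreated, wild type given MC903 for 7 days, Trpv3-knockout untreated and Trpv3-knockout given MC903 for 7 days. Genes entered when their FPKM (fragments scaled by gene length and by the size of the library) was at least 0.5 in at least 3 of the 12 libraries, which left 17646 of 54532 genes. Of these, 7008 differed in response between the genotypes and form the set described here. The labels name no vehicle for untreated skin, no age and no sex. The series text speaks of conditional Trpv3 knockouts, but the cells that lose the gene are not named in the labels. Nothing in them ties the 3 libraries of a group to separate animals. The p-values therefore weigh differences only against the scatter among these libraries, which may be technical.

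MC903, also called calcipotriol, mimics vitamin D. On skin it raises the keratinocyte alarmin TSLP and brings on type 2 inflammation, which makes it a common model for atopic dermatitis. TRPV3 is a warmth-sensitive calcium channel of keratinocytes, and PAR2, encoded by F2rl1, is a receptor that serine proteases switch on by cutting it. IL-33 is an alarmin kept in the nucleus of barrier cells and released on damage; its receptor ST2, encoded by Il1rl1, sits on mast cells, basophils and innate lymphoid cells. The interaction asks whether skin labelled knockout for the channel answers MC903 as wild type skin does.

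Gene-assigned reads numbered 16869716 in the shallowest library and 18485698 in the deepest. Skin samples can mix epidermis, dermis, fat, muscle, nerve and immune cells, and the sample titles do not name the layers taken. In such bulk RNA fewer cells of a type and less RNA per cell cannot be told apart. The targeted gene does not bear out the genotype labels in untreated skin. Trpv3 stood at 2.06, 2.71 and 1.13 FPKM in the untreated wild type libraries and at 3.17, 3.64 and 2.62 in the untreated libraries labelled knockout. The genotype is therefore given throughout as the label gives it. These values sum over the whole gene, so loss of 1 part of it can be neither seen nor excluded. Untreated wild type skin had the widest spread between replicates, with a median SD of 0.21 on the log2(FPKM + 0.5) scale against 0.11 to 0.15 in the other groups.

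Responses and interactions are differences of log2(FPKM + 0.5), which understate the change of genes with low levels, and come with their standard error (SE). A gene was called when its limma adjusted p was below 0.05. Of the 17646 genes tested, 39.7% were called for the interaction, 20% with a positive value (a higher response in labelled knockout) and 19.7% with a negative one, 3527 and 3481 genes. The interaction was at least 2-fold in 2831 of them and at least 4-fold in 432. As background, 63% of all genes tested passed for the MC903 response in wild type, 47.9% for the response in labelled knockout, 11.7% for the genotype difference in untreated skin and 52.1% for the genotype difference in MC903 skin. The 2 responses share no library, and the interaction shares libraries with every one of these contrasts. At the edge of the threshold, Dkk2 (0.50, limma adjusted p = 0.04993) and Zfhx3 (0.48, limma adjusted p = 0.04998) lay just inside, and Cplane1 (0.44, limma adjusted p = 0.05006) and Zfp39 (0.61, limma adjusted p = 0.05007) just outside.

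The called genes were sorted by their 2 responses. A blunted gene passed in wild type and responded less in labelled knockout, and 4646 genes (66.3% of those called) did so. A reversed gene passed in both genotypes in opposite directions, which held for 731 (10.4%). A knockout-only gene passed in labelled knockout and not in wild type, as did 1191 (17%). A further 290 genes (4.14%) were amplified, with the same direction in both genotypes and the larger response in labelled knockout, and 150 fell in no class, 148 of them because neither response passed. Of 6174 genes that responded in both genotypes, 2622 were called for the interaction.

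**Figure D1:**
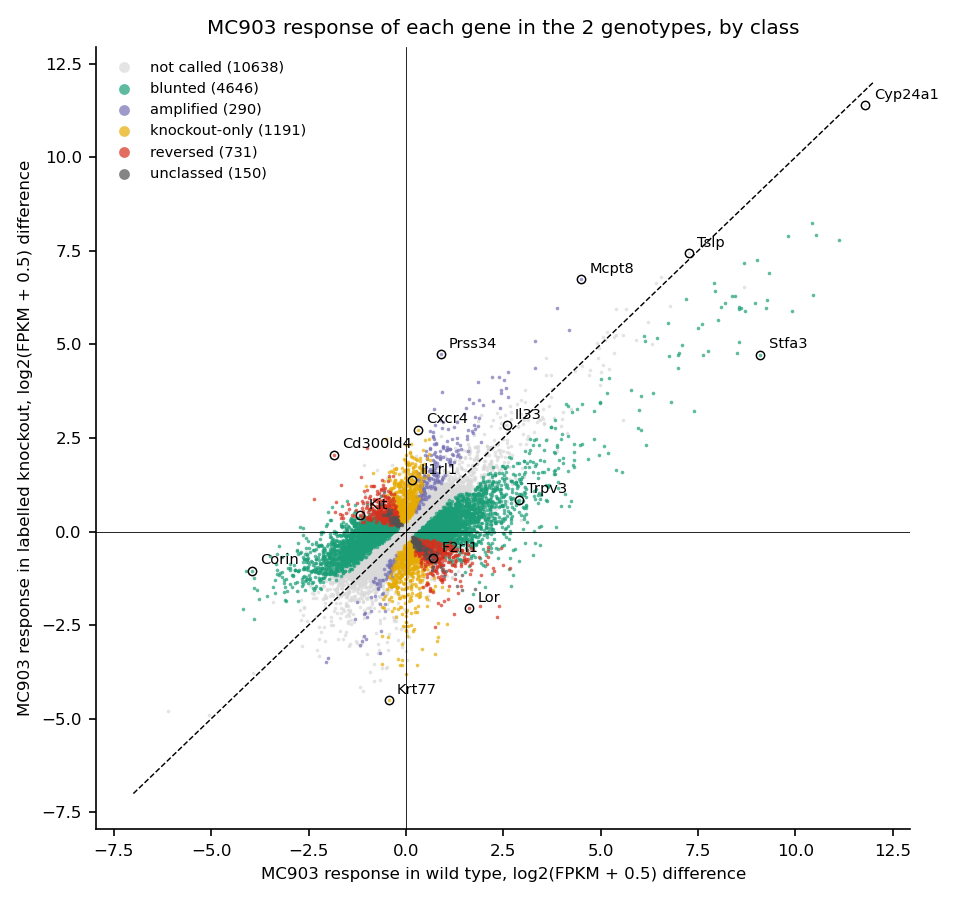
MC903 response of each of the 17646 genes tested in wild type (horizontal axis) and in labelled knockout (vertical axis), both as differences of log2(FPKM + 0.5), coloured by class, with the number of genes of each class in the key. The dashed line marks equal responses. The 731 reversed genes lie in the upper left and lower right corners. Of the 4646 blunted genes, the rises lie below the dashed line and the falls above it.

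The split between positive and negative interactions depended on how libraries were scaled. With the deposited values the median interaction over all genes was -0.005 and 50.3% of called genes were positive. Scaling to TPM moved that median to 0.23 and left 71.9% of the called genes positive, and scaling by total reads moved it to 0.12 and left 62% positive. Directions and classes below are those of the deposited scale, and the classes depended on scaling too. After scaling to TPM 3335 of the 4646 blunted and 277 of the 731 reversed genes kept their class. So did 419 of the 1191 knockout-only and 119 of the 290 amplified genes. With scaling by total reads 3963 blunted, 488 reversed, 776 knockout-only and 182 amplified genes kept theirs. The shift was not of 1 size for all genes. Scaling to TPM moved the median interaction of 13 mitochondrial genome transcripts from 1.256 to 1.542. The median of 26 hair genes moved from -1.599 to -1.435, and that of 2 eosinophil genes from 0.797 to 0.795.

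Among the genes of the pathway named by the series, the channel and the protease receptor differed in response and the alarmins did not pass. Trpv3 (ENSMUSG00000043029, chromosome 11, 73267388 to 73300363, mm10, plus strand) stood after MC903 at 16.1, 17 and 19 FPKM in wild type and at 6.82, 6.78 and 4.73 in labelled knockout. It rose in both genotypes, and the MC903 libraries of the genotypes did not overlap. The response was 2.91 in wild type and 0.85 in labelled knockout, an interaction of -2.06 ± 0.32 SE (limma adjusted p = 0.00063), so that Trpv3 itself was a blunted rise.

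F2rl1 (ENSMUSG00000021678, chromosome 13, 95511732 to 95525227, minus strand) was reversed. Its untreated levels were 7.19, 6.75 and 3.49 FPKM in wild type and 7.77, 8.15 and 6.46 in labelled knockout. After MC903 they were 9.75, 8.28 and 10 in wild type and 4.46, 4.36 and 4.22 in labelled knockout. All wild type libraries given MC903 lay above all untreated ones, and all labelled knockout libraries given MC903 lay below theirs. The interaction was -1.41 ± 0.29 SE (limma adjusted p = 0.0034). Its class rested on small responses, 0.70 and -0.71: F2rl1 was knockout-only after scaling to TPM or by total reads and blunted without untreated replicate 2 labelled knockout, while the interaction itself was called in all 23 alternatives.

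Il33 and Tslp rose in both genotypes. Il33 stood at 12.6, 19.7 and 10.5 FPKM in untreated wild type and 90.7, 88.6 and 77.9 after MC903, and at 8.67, 7.99 and 8.82 and then 54.6, 71.7 and 66.8 in labelled knockout. Its responses were 2.59 and 2.84, and the interaction of 0.26 did not pass (95% interval -0.33 to 0.84, limma adjusted p = 0.47). For Tslp the MC903 levels were 224, 223 and 549 FPKM in wild type and 387, 487 and 291 in labelled knockout, from 0.969 to 1.94 FPKM untreated. The interaction of Tslp was 0.18 (95% interval -0.86 to 1.22, limma adjusted p = 0.79), an interval that spans a difference of about 2-fold either way. Crlf2, the TSLP receptor chain, gave 0.05 (95% interval -0.56 to 0.67, limma adjusted p = 0.89). Cyp24a1, the vitamin D catabolic enzyme and a direct target of the vitamin D receptor, was listed at 0 in 5 of 6 untreated libraries. After MC903 it reached 1642, 1604 and 2217 FPKM in wild type and 1565, 1612 and 977 in labelled knockout, groups that overlapped.

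Receptor genes of the immune side rose in labelled knockout alone by the test. Il1rl1 (ENSMUSG00000026069, chromosome 1, 40429570 to 40465415, plus strand) stood at 1.3, 2.35 and 1.49 FPKM untreated and 1.49, 2.69 and 1.71 after MC903 in wild type. In labelled knockout it went from 1.4, 2.02 and 1.75 to 4.8, 5.03 and 6.05, so that 1 group of 3 libraries stood above the other 9. The interaction was 1.23 ± 0.30 SE (limma adjusted p = 0.0075) and was called in all 23 alternatives. Il7r, the second chain of the TSLP receptor, reached 4.85, 5.07 and 5.75 FPKM in labelled knockout after MC903 against 1.05 to 2.86 in the other groups (0.96 ± 0.33 SE, limma adjusted p = 0.037). Il1rap, the signalling partner of ST2, gave 0.50 ± 0.18 SE (limma adjusted p = 0.045). The calls of Il7r and Il1rap ended in 11 and 12 of 23 alternatives.

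**Figure D2:**
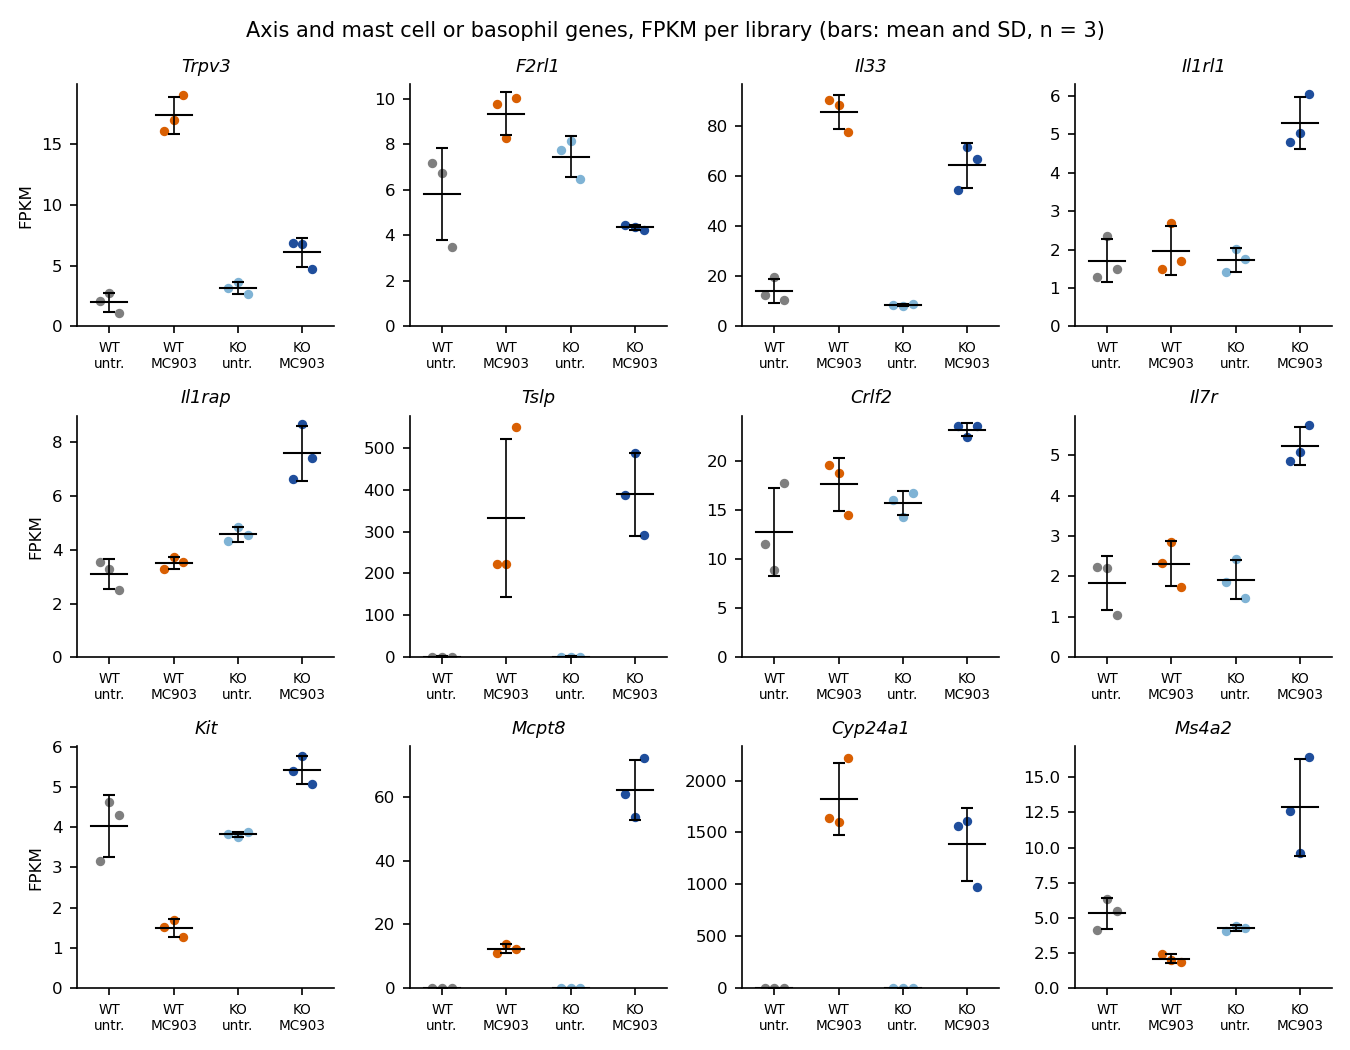
FPKM of 12 genes in each of the 12 libraries (points), with the mean and SD of the 3 libraries of a group (bars); each panel has its own axis from 0. Trpv3 is highest in wild type after MC903, whereas Il1rl1, Kit, Mcpt8 and Ms4a2 are highest in labelled knockout after MC903, and the group mean of F2rl1 is lowest there.

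The blunted rises, 2433 genes, were led by genes of inflamed and cornifying epidermis. Their median response was 1.10 in wild type and 0.14 in labelled knockout. In 1603 of them the labelled knockout response did not pass and in 830 it passed at a smaller size. The difference between genotypes was split between both conditions: the median genotype difference was 0.20 in untreated skin and -0.71 in MC903 skin. For 2428 of the 2433 the response was also smaller as a plain difference of mean FPKM.

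Stfa3, a stefin that inhibits cysteine proteases, had the largest interaction among the blunted rises that the naming rule picks. Untreated, it stood at 4.15, 6.74 and 2.79 FPKM in wild type and at 56.8, 57.4 and 42.3 in labelled knockout. After MC903 it reached 3230, 2512 and 2287 in wild type and 1292, 1342 and 1522 in labelled knockout. Labelled knockout skin thus started higher and ended lower, with no overlap in either condition, and the interaction was -4.38 ± 0.35 SE (limma adjusted p = 3.4e-05). The Stfa, Sprr2 and Lce families hold nearly identical genes, and how reads were divided among their members is uncertain.

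Gsdmc, a gasdermin of keratinocytes, went from 0.292, 0.66 and 0.0652 FPKM to 154, 130 and 123 in wild type. In labelled knockout it went from 2.72, 2.53 and 2.72 to 24.2, 35.3 and 28.1 (interaction -4.18 ± 0.31 SE, limma adjusted p = 3.1e-05). Krt16, a keratin of wounded epidermis, reached 6555, 4727 and 4499 FPKM in wild type and 1390, 1606 and 1064 in labelled knockout, from at most 6.21 and 28.2 untreated (-4.14 ± 0.71 SE, limma adjusted p = 0.0012). All 3 genes kept the order of untreated labelled knockout above untreated wild type and of MC903 wild type above MC903 labelled knockout. The remaining leaders were Sprr2d, a cornified envelope precursor (-4.02), and the serpin Serpinb3a (-3.97).

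The RefSeq promoter window of Stfa3 is shown because it leads the blunted rises, with the 250 bases before the start at chr16:36455393-36455642 of GRCm38.p6, minus strand, 5′ to 3′. Capitals mark matches to the GATA motif AGATAA.
Stfa3: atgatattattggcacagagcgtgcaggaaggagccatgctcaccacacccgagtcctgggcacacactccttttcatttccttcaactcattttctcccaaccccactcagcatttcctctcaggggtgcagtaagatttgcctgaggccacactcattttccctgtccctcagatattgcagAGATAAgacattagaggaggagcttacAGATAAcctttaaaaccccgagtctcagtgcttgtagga
The window held 2 matches to AGATAA and none to the AP-1 motif TGANTCA. Both motifs were searched on both strands in the 250 bases before the start of the 11837 genes tested that the RefSeq table holds by symbol, and the motifs can share at most 1 base. AGATAA was found in 6.35% of these windows and TGANTCA in 5.03%. Among blunted rises the shares were 5.83% and 5.94% of 1750 windows. A match describes the letters only.

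Gene lists were set beside the background of 39.7% called. Of 31 stress keratin and inflamed-epidermis genes tested, 20 were called, all blunted rises, with a median interaction of -2.09 over the list against -0.005 over all genes. Their median genotype difference was 1.42 untreated and -0.64 after MC903, and the summed level of the list was 120 to 265 FPKM in untreated wild type, 395 to 746 in untreated labelled knockout, 26900 to 31800 in MC903 wild type and 14300 to 16900 in MC903 labelled knockout. The members without a call included the calprotectin chains S100a8 (-0.61) and S100a9 (-1.31), the siderophore binder Lcn2 (0.58) and the cytokine Il24 (-0.10). The list therefore did not move as 1 block.

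Of 21 late cornified envelope genes, 18 were blunted rises and Lce1m was an amplified fall (median -1.61). Lce1f stood at 65.2, 47.1 and 36.6 FPKM untreated and 308, 260 and 292 after MC903 in wild type, and at 132, 151 and 132 and then 187, 214 and 130 in labelled knockout (-2.23 ± 0.30 SE, limma adjusted p = 0.00031). Of 21 kallikreins, serine proteases and inhibitors, 17 were blunted rises (median -1.80), which included the protease Klk6 (-3.72). Prss27, a serine protease also called marapsin, went from 1.04, 1.39 and 1 FPKM to 74.3, 64.3 and 65.3 in wild type and from 6.49, 3.72 and 3.43 to 17.2, 17 and 10.9 in labelled knockout (-3.74 ± 0.31 SE, limma adjusted p = 4e-05). Of 15 barrier lipid genes, 12 were blunted rises (median -1.46), with the ceramide synthase Cers3 at 36, 38.5 and 33.6 FPKM in MC903 wild type and 16.6, 20.7 and 14.8 in MC903 labelled knockout (-1.95 ± 0.27 SE, limma adjusted p = 0.00039).

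Basal keratinocyte genes differed in another place. Of 12 tested, 9 were called, all negative (median -0.79), and the median genotype difference was -0.01 untreated and -0.80 after MC903. Krt14, the keratin of the basal layer, reached 14220, 10160 and 11200 FPKM in MC903 wild type and 3327, 4066 and 2886 in MC903 labelled knockout (-2.18 ± 0.27 SE, limma adjusted p = 0.00021). Its partner Krt5 rose from 602.8, 623.6 and 501.8 to 2641, 1822 and 1698 in wild type and stood at 746.6, 727.3 and 611.8 and then 560.4, 639.8 and 476 in labelled knockout, where it did not pass (limma adjusted p = 0.18). Of 26 cell cycle genes 16 were blunted rises and Ccne2, a cyclin, was a knockout-only rise (median -0.72). Cdc20, an activator of the anaphase-promoting complex, stood at 32.8, 28.9 and 26.4 FPKM in MC903 wild type and 14.3, 16.2 and 12.7 in MC903 labelled knockout (-1.27 ± 0.22 SE, limma adjusted p = 0.0012). Mki67 (-0.28) and Pcna (0.27), both used as markers of proliferation, did not pass. After scaling to TPM 7 cell cycle genes were negative and 2 positive.

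Genes of the vitamin D response were divided. Trpv6, a calcium channel that vitamin D induces, stood at 1.81, 1.02 and 1.01 FPKM untreated and 6.79, 5.59 and 5.9 after MC903 in wild type, and at 1.94, 1.58 and 1.54 and then 2.75, 2.49 and 0.947 in labelled knockout (-1.77 ± 0.39 SE, limma adjusted p = 0.0045). The receptor Vdr gave -0.73 ± 0.26 SE (limma adjusted p = 0.042) and lost its call in 11 of 23 alternatives. Together with Rxra (-0.69), which lost its call after scaling to TPM, 3 of 6 tested members were called, beside 39.7% of all genes. After scaling to TPM 1 member was called, and with scaling by total reads 2 were.

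Chil4, a chitinase-like protein of type 2 inflammation, had the largest interaction of the type 2 list. It stood at 62.7, 32.7 and 35.4 FPKM in MC903 wild type and 2.99, 1.57 and 1.61 in MC903 labelled knockout, and was listed at 0 in 5 of 6 untreated libraries. The interaction of -3.85 ± 0.40 SE (limma adjusted p = 9e-05) therefore depends on the pseudocount, and it did not pass in limma voom on recovered reads (-2.71). The genotype difference after MC903 was -4.09. Of 20 type 2 genes tested, 6 were called, a share of the list under the background, and Il4, Il13 and Il4ra were not among them.

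The blunted falls, 2213 genes, included genes of dermis, nerve, fat and sebaceous gland. Their median response was -1.03 in wild type and -0.16 in labelled knockout, with a median genotype difference of -0.12 untreated and 0.69 after MC903. Corin (ENSMUSG00000005220, chromosome 5, 72300025 to 72504473, minus strand), a membrane serine protease that is made in the dermal papilla, went from 90.1, 103 and 104 FPKM to 5.4, 6.3 and 5.99 in wild type. In labelled knockout it went from 59.5, 54.8 and 70.7 to 32.7, 26.2 and 29.7. None of the 4 groups overlapped, which the naming rule required between the untreated and MC903 libraries of each genotype. The interaction was 2.91 ± 0.16 SE (limma adjusted p = 1.4e-05).

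Timp3, a matrix-bound inhibitor of metalloproteinases, differed only after MC903 by the test. Untreated levels were 122, 160 and 173 FPKM in wild type and 135, 119 and 143 in labelled knockout (genotype difference -0.18, limma adjusted p = 0.46). After MC903 they were 11.8, 15.8 and 11.6 against 89.3, 78 and 83 (2.64, limma adjusted p = 1.3e-06). Lep, the hormone leptin of fat cells, showed the other pattern: it fell from 25.2, 41.6 and 30 FPKM to 4.55, 3.01 and 6 in wild type and stood at 8.83, 7.41 and 7.12 and then 7.38, 8.36 and 9.96 in labelled knockout. Its interaction of 2.85 ± 0.32 SE (limma adjusted p = 0.00013) came with an untreated genotype difference of -1.96. Myoc, which encodes myocilin, a secreted protein (3.07), and Omd, a small proteoglycan of matrix (2.88), completed the leaders.

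All 12 Schwann cell and nerve genes tested were blunted falls, with a median response of -2.06 in wild type and -0.77 in labelled knockout. The list summed to 589 to 645 FPKM in untreated wild type, 101 to 102 in MC903 wild type, 466 to 504 in untreated labelled knockout and 247 to 267 in MC903 labelled knockout. S100b, a calcium-binding protein of Schwann cells that other cells also make, gave 2.47 ± 0.19 SE (limma adjusted p = 3.1e-05). The count of 12 positive calls was the same under TPM, total reads and voom.

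Wif1, a secreted Wnt inhibitor, stood at 611, 489 and 706 FPKM in untreated wild type and 41.3, 38.1 and 39.6 after MC903, and at 556, 486 and 650 and then 258, 224 and 236 in labelled knockout (2.66 ± 0.20 SE, limma adjusted p = 3.1e-05). Of 10 Wnt antagonists tested 5 were blunted falls, Sfrp1 was a blunted rise (-0.69) and 4 were not called. Of 14 adipocyte genes 7 were blunted falls, 1 was a knockout-only fall and 6 were not called (median 0.68), and Pparg, the master regulator of fat cells, went from 24.3, 25.4 and 19.1 to 6.64, 5.54 and 5.83 in wild type and from 15, 12.9 and 15.8 to 10.9, 9.43 and 10.6 in labelled knockout (1.36 ± 0.17 SE, limma adjusted p = 0.00023). Scd1, the desaturase that sebaceous glands and fat use to make monounsaturated lipid, fell to 292.2, 386.2 and 268.5 FPKM in wild type and to 1134, 793.3 and 818.5 in labelled knockout, from 2107 to 3245 untreated (1.81 ± 0.27 SE, limma adjusted p = 0.00054). The sebaceous list as a whole had 3 positive and 3 negative calls of 14, beside 39.7% called of all genes. Its median of -0.04 changed sign under both other scalings.

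Among 13 transcripts of the mitochondrial genome 10 were called, all positive (median 1.26), 7 of them blunted falls. The difference lay first in untreated wild type skin, where the list summed to 31100 to 44300 FPKM, against 15900 to 19800 in MC903 wild type, 18400 to 19500 in untreated labelled knockout and 22300 to 22800 in MC903 labelled knockout. mt-Nd5, a subunit of respiratory complex I, stood at 2653, 3075 and 2180 in untreated wild type and between 711.1 and 1448 elsewhere (1.81 ± 0.22 SE, limma adjusted p = 0.00019). mt-Co3 (2.25) was nominally a knockout-only rise, but MC903 replicate 2 labelled knockout stood apart, at 225 beside 52.7 and 46.7 FPKM, and that class was held in 10 of 23 alternatives.

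Reversed genes, 731 in number, included genes of the granular layer on one side and mast cell and vascular genes on the other. In 393 the wild type response was a rise (median 0.68, against -0.56 in labelled knockout) and in 338 it was a fall (median -0.51, against 0.46). Both responses reached 2-fold in 22 of the 731, and the others combined smaller opposite changes. In proportion to its size this count moved most of the 4 classes when 1 library was left out, to 472 without untreated replicate 1 labelled knockout, 487 without replicate 2 of that group and 1087 without untreated wild type replicate 3.

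Lor (ENSMUSG00000043165, chromosome 3, 92080271 to 92083142, minus strand) encodes loricrin, the bulk protein of the cornified envelope. In wild type it rose from 367.4, 187.1 and 396.4 FPKM to 1272, 968 and 641.5. In labelled knockout it fell from 889.8, 886.8 and 749.1 to 293.1, 212.1 and 132.3. Neither genotype's untreated and MC903 libraries overlapped, which the naming rule required of a reversed gene. The interaction was -3.67 ± 0.49 SE (limma adjusted p = 0.00032).

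Among named reversed genes with a wild type rise, Lor had the largest interaction of those with a promoter window and at least 200 bases. Its window is printed, at chr3:92083143-92083392 of GRCm38.p6, minus strand, with the AP-1 match in capitals.
Lor: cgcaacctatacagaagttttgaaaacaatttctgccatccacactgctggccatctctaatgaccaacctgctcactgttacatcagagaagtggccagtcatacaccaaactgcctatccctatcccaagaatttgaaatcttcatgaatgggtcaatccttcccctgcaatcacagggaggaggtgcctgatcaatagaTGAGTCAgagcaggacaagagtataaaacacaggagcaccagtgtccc
TGANTCA was found in 4.71% and AGATAA in 8.42% of the 297 windows of reversed genes with a wild type rise, against 5.03% and 6.35% of all windows. The window of Cd300ld4, picked in the same way and described below, held neither and is not printed.

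Il1f6, which encodes IL-36 alpha, followed the same course as Lor. It went from 5.35, 5.62 and 1.84 FPKM to 24.1, 16.5 and 9.98 in wild type and from 28.6, 31.5 and 25.4 to 6.18, 7.83 and 6.3 in labelled knockout (-3.90 ± 0.51 SE, limma adjusted p = 0.00028). Ccl20, the attractant of CCR6-bearing cells, rose from 0.141, 0.698 and 0.258 to 5.05, 3.03 and 7.33 and fell from 6.37, 7.89 and 4.16 to 2.44, 3.47 and 2.59 (-3.65 ± 0.45 SE, limma adjusted p = 0.0002). Ccl20 was blunted in 6 of 23 alternatives, among them a pseudocount of 0.1. Clca3a2, of the CLCA family of chloride channel regulators, gave -3.44, and Klk5, a kallikrein that starts desquamation, gave -2.55. Col17a1, a collagen of the hemidesmosome, rose from 84.5, 74.4 and 61.9 to 133, 111 and 108 in wild type and fell from 79.6, 80.2 and 70.1 to 45.2, 51.5 and 37.8 in labelled knockout (-1.44 ± 0.20 SE, limma adjusted p = 0.00038). The leader by size, the T cell receptor joining segment Trbj2-7, had 0 to 7 reads per library and is not described further.

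Of 25 terminal differentiation genes 21 were called, all negative (median -2.17), and they were spread over the classes: 13 were blunted rises, 5 knockout-only falls and 2 reversed, and Krt10 fell in no class. The median genotype difference of the list was 1.25 untreated and -0.75 after MC903. Asprv1, a retroviral-like protease that processes filaggrin, stood at 166, 138 and 93.6 FPKM and then 970, 723 and 920 in wild type, and at 407, 468 and 396 and then 277, 365 and 274 in labelled knockout (-3.22 ± 0.29 SE, limma adjusted p = 5.1e-05). Its labelled knockout response of -0.48 did not pass. Asprv1 counted as blunted, and was reversed in 5 of 23 alternatives, which included both other scalings and voom.

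Mast cell genes supplied reversed genes of the opposite sign. Kit (ENSMUSG00000005672, chromosome 5, 75574916 to 75656722, plus strand), the stem cell factor receptor on which mast cells depend and which melanocytes also carry, fell from 3.16, 4.63 and 4.3 FPKM to 1.53, 1.69 and 1.26 in wild type. In labelled knockout it rose from 3.82, 3.77 and 3.88 to 5.39, 5.78 and 5.07. The interaction was 1.62 ± 0.18 SE (limma adjusted p = 0.00012), with an untreated genotype difference of -0.05. The rise in labelled knockout, 0.45, did not make Kit reversed after scaling to TPM or without MC903 replicate 2 labelled knockout, where it was blunted.

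Ms4a2, the beta chain of the high-affinity IgE receptor, fell from 4.16, 6.36 and 5.46 FPKM to 2.47, 1.99 and 1.86 in wild type and rose from 4.08, 4.45 and 4.31 to 12.6, 9.58 and 16.4 in labelled knockout (2.60 ± 0.26 SE, limma adjusted p = 8.2e-05). The carboxypeptidase Cpa3 (1.51) and the chymase Cma1 (0.94) were also reversed. In all, 10 of 14 mast cell genes tested were called, each positive (median 1.20): 4 reversed, 3 blunted falls, 2 amplified rises and 1 knockout-only rise. The tryptase gene Tpsb2 (-0.07) and the receptor gene Mrgprb2 (0.51), 2 defining markers, did not pass. The list summed to 257 to 370 FPKM in untreated wild type, 201 to 226 in MC903 wild type, 327 to 336 in untreated labelled knockout and 454 to 524 in MC903 labelled knockout.

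Cd300ld4, a receptor-like gene of the CD300 family of myeloid cells, led the reversed genes with a wild type fall. It went from 3.42, 5.99 and 5.58 FPKM to 0.561, 1.8 and 0.839 in wild type and from 4.26, 4.25 and 4.47 to 19.7, 20.1 and 19.1 in labelled knockout (3.92 ± 0.35 SE, limma adjusted p = 5.1e-05). Mest, an imprinted gene of the paternal allele, went from 7.07, 9.38 and 5.79 to 1.15, 1.03 and 0.876 and from 2.81, 3.87 and 5.74 to 8.52, 6.02 and 9.04 (3.24 ± 0.33 SE, limma adjusted p = 8.6e-05). Rgs5, a marker of pericytes, gave 2.35 and was blunted in 4 of 23 alternatives, and Prune2 gave 2.58. Pecam1, the endothelial adhesion molecule CD31, went from 16.5, 18.6 and 21.1 to 12.8, 13 and 13.3 and from 18.5, 17.5 and 18.7 to 25.7, 27.7 and 33.6 (1.15 ± 0.15 SE, limma adjusted p = 0.00031).

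**Figure D3:**
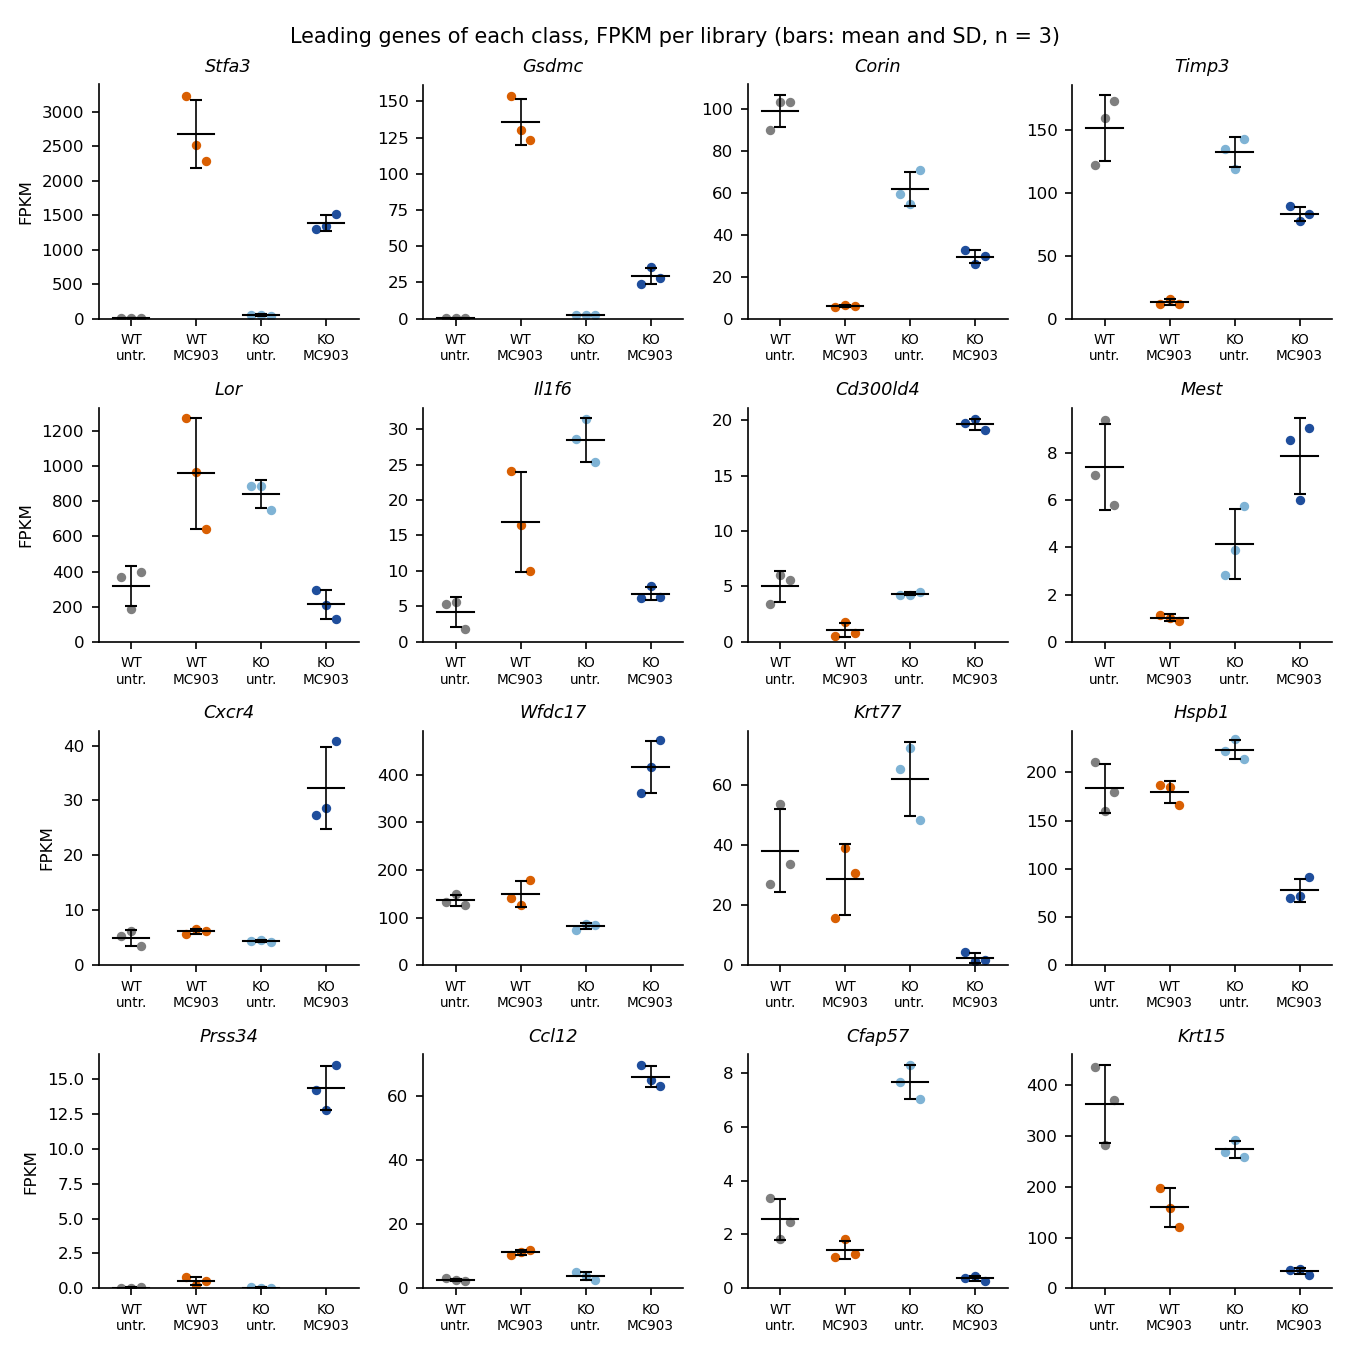
FPKM of 16 genes in each of the 12 libraries (points), with the mean and SD of the 3 libraries of a group (bars); each panel has its own axis from 0. The top row shows blunted rises and falls, the second row reversed genes, the third row knockout-only rises and falls, and the bottom row amplified rises and falls.

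The knockout-only class held 692 rises, with a median response of 0.68 in labelled knockout and -0.05 in wild type, and 499 falls, with -0.88 and 0.08. A wild type response that did not pass is not shown to be 0; it lay within 0.5 of 0 in 681 of the rises and 468 of the falls. Cxcr4 (ENSMUSG00000045382, chromosome 1, 128588199 to 128592293, minus strand), the receptor for the chemokine CXCL12, led the rises. It stood at 5.22, 6.28 and 3.44 FPKM untreated and 5.62, 6.63 and 6.16 after MC903 in wild type, and at 4.3, 4.61 and 4.25 and then 27.4, 28.6 and 40.8 in labelled knockout. The interaction was 2.41 ± 0.27 SE (limma adjusted p = 0.00012).

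Wfdc17, a secreted whey acidic protein-like factor of macrophages, stood at 126 to 149 FPKM and then 142, 126 and 180 in wild type, and at 73.9, 87.2 and 85 and then 361, 416 and 472 in labelled knockout (2.21 ± 0.20 SE, limma adjusted p = 5.6e-05). Hgf, the hepatocyte growth factor of mesenchymal and myeloid cells, read 0.373 to 0.736 in wild type of either condition and 4.89, 4.61 and 6.56 in MC903 labelled knockout (2.04 ± 0.24 SE, limma adjusted p = 0.00015). Mmp19, a metalloproteinase, gave 2.01, and Tnfsf14, the ligand LIGHT, gave 2.30. Selp, the P-selectin with which endothelium catches leukocytes, went from 1.88, 1.89 and 1.46 to 7.87, 9.89 and 9.84 in labelled knockout and stood between 1.13 and 1.38 in wild type (2.0 ± 0.16 SE, limma adjusted p = 3.6e-05). Il1r1, the signalling receptor for IL-1, rose to 28.4, 29.1 and 31.3 from 13.9, 13.8 and 14.5 and stood between 11.8 and 16.2 in wild type (1.18 ± 0.13 SE, limma adjusted p = 0.00013).

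Monocyte and macrophage genes were called in 9 of 15 cases, each positive (median 1.0), of which 5 were knockout-only rises, 2 amplified and 2 reversed. Cd68, a lysosomal glycoprotein of macrophages, stood at 28.7, 38.4 and 32.1 FPKM and then 25.4, 29.9 and 26.4 in wild type, and at 35.1, 39 and 38.2 and then 83.4, 105 and 106 in labelled knockout (1.64 ± 0.18 SE, limma adjusted p = 0.00011). It was a knockout-only rise, and reversed in 4 of 23 alternatives. The complement genes C1qa (-0.96), C1qb (0.29) and C1qc (0.18) and the receptor Folr2 (0.31) did not pass. The list summed to 657 to 946 FPKM in untreated wild type, 758 to 932 in MC903 wild type, 922 to 993 in untreated labelled knockout and 1470 to 2240 in MC903 labelled knockout. Csf1r, the growth factor receptor of macrophages, was reversed, at 30.4, 35.1 and 37.2 and then 21.4, 21.6 and 20.1 in wild type against 47.3, 49.3 and 53.1 and then 62.1, 68.7 and 84.9 (1.20 ± 0.16 SE, limma adjusted p = 0.00034).

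Knockout-only falls were led by Krt77, a suprabasal keratin. It stood at 26.9, 53.6 and 33.8 FPKM and then 15.8, 39.2 and 30.7 in wild type, groups that overlapped, and at 65.3, 72.4 and 48.3 and then 4.36, 1.28 and 1.79 in labelled knockout (-4.06 ± 0.58 SE, limma adjusted p = 0.00043). Sprr4, a cornified envelope precursor, stood between 12.2 and 41.3 in wild type of either condition and read 85.3, 112 and 74.4 and then 3.58, 8.62 and 27.4 in labelled knockout (-3.55 ± 0.83 SE, limma adjusted p = 0.0064). Hspb1, the small heat shock protein HSP27, stood between 160 and 211 in wild type and went from 223, 235 and 214 to 69.8, 71.8 and 91 in labelled knockout (-1.51 ± 0.18 SE, limma adjusted p = 0.00016). The keratin-associated Krtap6-5 (-3.85) lost its call in 6 of 23 alternatives, and the microRNA genes Mir143 and Mir7211, which the naming rule also picks, had 0 to 10 reads per library.

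Skeletal muscle genes gave 6 knockout-only falls among 17 tested, 1 amplified fall and 2 blunted falls, the median interaction being -0.86. Over all genes tested, 39.7% were called and 2.83% were knockout-only falls. Actn3, the alpha-actinin of fast fibres, stood at 38.7, 44.6 and 97.4 FPKM and then 32, 46.5 and 31.2 in wild type, and at 49.4, 36.1 and 49.5 and then 5.37, 5.49 and 7.3 in labelled knockout (-2.18 ± 0.43 SE, limma adjusted p = 0.0024). Actn3 was a knockout-only fall, and an amplified one in 3 of 23 alternatives. The slow myosin Myh7 went the other way: it fell from 5.54, 9.14 and 9.1 to 1.45, 0.828 and 0.657 in wild type and from 2.41, 2.03 and 1.89 to 0.87, 1.18 and 1.25 in labelled knockout (1.81 ± 0.31 SE, limma adjusted p = 0.0013). Summed over the list, muscle RNA was 3620 to 6980 FPKM in untreated wild type, 2500 to 3390 in MC903 wild type, 2620 to 3490 in untreated labelled knockout and 841 to 1290 in MC903 labelled knockout. The part of muscle RNA in other results was not tested.

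Epcam, an adhesion protein of Langerhans cells and of follicle epithelium, was a knockout-only fall, to 8.59, 8.81 and 9.06 FPKM from 29.4, 31.9 and 27.8, against 13.5 to 25.5 in wild type of either condition (-1.96 ± 0.25 SE, limma adjusted p = 0.00023). The dendritic and Langerhans cell list as a whole did not follow Epcam. Of its 13 genes tested, 5 were called positive and 2 negative (median 0.43), beside 39.7% called of all genes. Gata3, a transcription factor of hair follicle and of type 2 lymphocytes, fell to 4.77, 4.65 and 3.84 from 9.35, 12.2 and 9.65, against 7.81 to 17.9 in wild type (-1.61 ± 0.27 SE, limma adjusted p = 0.0011). The wild type response of Gata3, 0.47, came close to the threshold (limma adjusted p = 0.052), and the gene was reversed in 6 of 23 alternatives. Of 26 hair genes tested only 4 were called, although their median interaction was -1.60. That median was -0.67 without untreated wild type replicate 3, in which the summed level of the list was lowest.

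Amplified responses were the smallest class, with 220 rises and 70 falls. The rises had a median response of 0.72 in wild type and 1.62 in labelled knockout, and the falls -0.52 and -1.23. Prss34 (ENSMUSG00000056399, chromosome 17, 25298394 to 25300161, plus strand), a serine protease made by basophils, led the rises. It read 0 to 0.126 FPKM in all untreated libraries, 0.787, 0.202 and 0.539 in MC903 wild type and 14.2, 12.8 and 16 in MC903 labelled knockout (3.85 ± 0.29 SE, limma adjusted p = 3.1e-05). Mcpt8, the other basophil protease, reached 11.1, 14 and 12.2 in wild type and 60.8, 53.5 and 72.1 in labelled knockout, from at most 0.215 untreated (2.23 ± 0.21 SE, limma adjusted p = 6.3e-05). At these low untreated levels the size of an interaction can depend on the pseudocount. Over the alternatives it lay between 3.32 and 4.43 for Prss34 and between 2.12 and 2.52 for Mcpt8. With limma voom on recovered reads alone Mcpt8 did not pass (limma adjusted p = 0.057).

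The promoter window of Prss34 is shown as that of the leading amplified rise, at chr17:25298144-25298393 of GRCm38.p6, plus strand, with the match to AGATAA in capitals.
Prss34: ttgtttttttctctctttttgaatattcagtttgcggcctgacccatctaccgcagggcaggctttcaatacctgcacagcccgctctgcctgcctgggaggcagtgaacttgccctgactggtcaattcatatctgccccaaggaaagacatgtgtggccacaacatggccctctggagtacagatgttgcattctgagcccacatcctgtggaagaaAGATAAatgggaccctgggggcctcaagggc
AGATAA was present in 10.1% and TGANTCA in 8.81% of the 159 windows of amplified rises, against 6.35% and 5.03% of all windows. These are 16 and 14 genes. Among the 54 windows of amplified falls each motif was present in 3.7%. The difference in shares was not tested.

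Fcer1a, the IgE-binding chain that mast cells and basophils share, went from 3.58, 4.67 and 3.62 FPKM to 8.33, 8.56 and 6.98 in wild type and from 0.513, 1.42 and 0.914 to 16.9, 14 and 24.6 in labelled knockout (2.79 ± 0.34 SE, limma adjusted p = 0.00018). Labelled knockout skin began lower and ended higher. Of 9 basophil genes 7 were called, each positive (median 1.51), which included Cd200r3, an activating receptor, at 4.38, 3.18 and 4.5 in MC903 labelled knockout against 0.479 to 0.759 elsewhere (1.85 ± 0.20 SE, limma adjusted p = 0.00012). The basophil list summed to 55.8 to 76.7 FPKM in the other 3 groups and 199 to 251 in MC903 labelled knockout, and it shares Fcer1a, Cpa3 and Gata2 with the mast cell list. With limma voom 5 basophil genes were called positive and 1 negative.

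Ms4a4a, a tetraspan protein of macrophages, rose from 16.5, 32.5 and 19.8 FPKM to 35.8, 36.4 and 37.5 in wild type and from 22.8, 19.9 and 20.4 to 167, 225 and 246 in labelled knockout (2.57 ± 0.30 SE, limma adjusted p = 0.00015). Ccl12, a monocyte attractant, reached 10.3, 11.2 and 12 against 69.7, 65 and 63.3, from 2.43 to 5.05 untreated (2.15 ± 0.25 SE, limma adjusted p = 0.00015). Of 13 monocyte attractants and receptors 6 were amplified rises and Ccr2 was a knockout-only rise (median 0.79). Ccr1, a receptor for several CC chemokines, stood at 6.56, 9.33 and 8.96 in MC903 wild type and 32.5, 44 and 49 in MC903 labelled knockout (1.73 ± 0.24 SE, limma adjusted p = 0.0004).

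Neutrophil genes depended on the way low untreated values were handled. Of 9 tested, 5 were called as amplified rises (median 1.11), among them the receptor Cxcr2, at 6.98, 8.66 and 10.8 FPKM in MC903 wild type and 25.8, 37.4 and 37.2 in MC903 labelled knockout (1.06 ± 0.27 SE, limma adjusted p = 0.0099). As ratios of mean FPKM, Cxcr2 rose 20.5-fold in wild type and 29.5-fold in labelled knockout. With limma voom on recovered reads, which has no FPKM pseudocount, 0 of the 9 were called, 0 had an unadjusted p below 0.05, and the median was 0.40. The list summed to 1000 to 1240 FPKM in MC903 wild type and 2120 to 2770 in MC903 labelled knockout, and to 9.03 to 30.1 and 26.2 to 188 untreated.

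Amplified falls included Krt15, a keratin of basal and follicle stem cells, which went from 436, 282 and 372 FPKM to 199, 158 and 122 in wild type and from 269, 293 and 259 to 36.1, 37.8 and 26.6 in labelled knockout (-1.84 ± 0.29 SE, limma adjusted p = 0.00071). Cfap57, a protein of motile cilia, fell from 3.36, 1.85 and 2.47 to 1.18, 1.82 and 1.27 and from 7.65, 8.29 and 7.04 to 0.384, 0.441 and 0.282 (-2.58 ± 0.26 SE, limma adjusted p = 8e-05). Hs3st6, a heparan sulfate sulfotransferase, gave -2.01. Fosb, an immediate early transcription factor, gave -1.86, but it was an amplified fall in only 7 of 22 alternatives, was knockout-only in 8 and lost its call in 7.

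**Figure D4:**
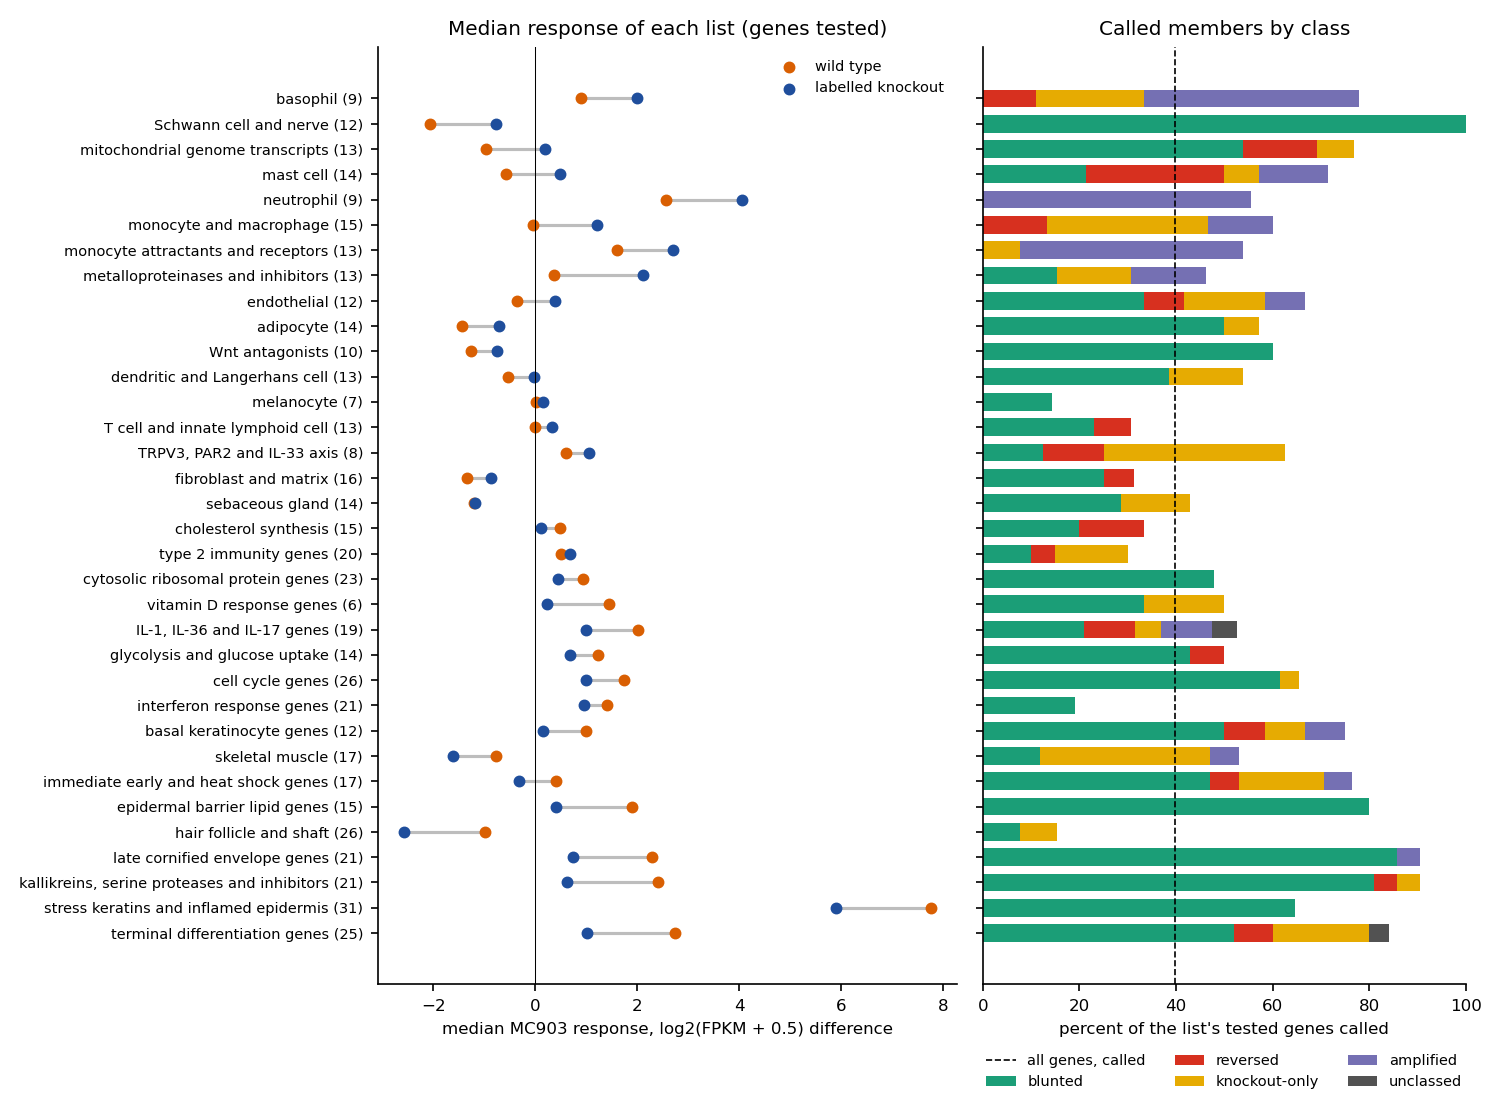
Left, median MC903 response of the genes tested in each of the 34 lists with at least 3 tested genes (number in brackets), in wild type and in labelled knockout, ordered by the median interaction; right, percent of those genes called for the interaction, by class, with a dashed line at the 39.7% of all genes. The stress keratin and terminal differentiation lists have lower medians in labelled knockout, the mast cell and macrophage lists higher ones, and every Schwann cell gene is blunted.

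Stress-responsive genes, both immediate early and heat shock, were mostly negative too. Of 17 tested 11 were negative and 2 positive (median -0.95), and their median genotype difference was 0.67 untreated and -0.08 after MC903. Junb, a subunit of AP-1, stood at 21.2, 13.8 and 25.4 FPKM and then 199, 210 and 196 in wild type, and at 46, 67.5 and 42.4 and then 113, 128 and 97.7 in labelled knockout (-2.20 ± 0.31 SE, limma adjusted p = 0.00039). Their part in the epidermal differences was not tested.

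**Figure D5:**
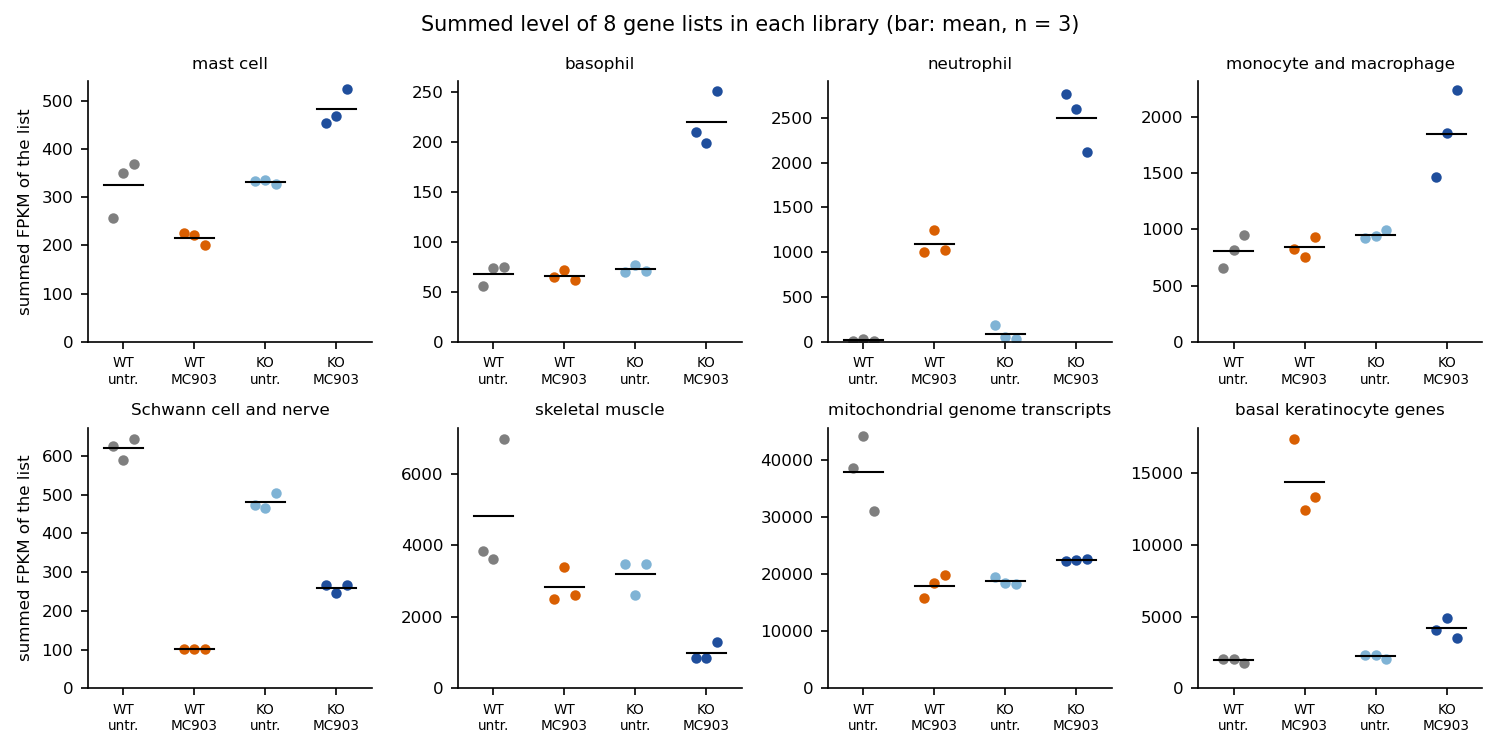
Summed FPKM of 8 gene lists in each of the 12 libraries (points) with the group mean (bar); each panel has its own axis from 0. The immune lists are highest in labelled knockout after MC903, the basal keratinocyte list in wild type after MC903, the mitochondrial list in untreated wild type, and the Schwann cell list is lowest in wild type after MC903.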

How the data were processed

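Skin RNA was sequenced in 12 libraries, and the sample titles name neither the body site nor the layers taken. The authors deposited FPKM values per gene in 1 table. Counting with featureCounts and the mm10 build are named in the submitters' processing notes, while for the aligner, the annotation version and the tool behind FPKM nothing is stated ("not given in the sources used here"). Whether strand was used is not stated, so overlapping and antisense genes are uncertain. Whole reads were recovered from FPKM and gene length, within 0.01 of a whole number, and gave the depths reported.

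log2(FPKM + 0.5) of the genes with FPKM of at least 0.5 in at least 3 libraries was fitted with limma 3.58.1 (R 4.3.3) over the 4 groups, with 8 residual degrees of freedom, with Benjamini-Hochberg adjustment over all genes tested in each contrast. Responses counted at adjusted p below 0.05. Genes named were those of the channel and alarmin pathway with Kit, Mcpt8 and Cyp24a1, the 5 largest interactions of each subclass with a mean FPKM of at least 1 in a group, a name that is not a predicted one and treatment groups that do not overlap, and up to 3 members of each of 35 lists by adjusted p. Other list members, such as uncalled ones, were named after their values were seen. 1 gene picked by the rule is not reported here. Members and lists were chosen with earlier results of these data known.

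The fit was tested on simulated data. The alternatives were other pseudocounts, filters, scalings, thresholds and weights, a replicate block, limma voom on recovered reads and each library left out. Motifs and figures used Python 3.11.15, numpy 2.4.6, pandas 2.3.3 and matplotlib 3.10.9. The other 3 samples, of dorsal root ganglion, were not analysed here.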

Additional observations from a re-analysis of the deposited data

Results flagged for a closer look

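The interaction is itself a test of whether an effect differs between groups, so its calls are listed here by construction and stand in the report with their values: 7008 genes called in all, with 4646 blunted, 731 reversed, 1191 knockout-only and 290 amplified. Among the pathway genes the same limma test set apart Trpv3 (-2.06), F2rl1 (-1.41), Il1rl1 (1.23), Il7r (0.96), Il1rap (0.50), Kit (1.62) and Mcpt8 (2.23). Single libraries within groups of 3 were not tested as outliers, and the effect of leaving each one out is given with the other alternatives.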

How the results depend on the processing

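Of 133 named genes called, 118 kept their call in every alternative fit run for them, and none of the 133 changed sign. These were at most 23 fits per gene, all judged at adjusted p below 0.05. The threshold of 0.01 was not among them. A kept call did not fix the class. Among others, Ms4a4a, Fcer1a and Col17a1 were knockout-only after scaling to TPM, and Il1r1 was reversed. Scaling by total reads also made Ms4a4a knockout-only and Il1r1 reversed. Of the 7 uncalled named genes Tslp, Crlf2, Cyp24a1 and Ccr3 had values on both sides of 0 over the alternatives. Leaving out 1 library at a time gave 5773 to 8003 called genes, 3830 to 4922 blunted, 472 to 1087 reversed, 880 to 1480 knockout-only and 207 to 385 amplified. Library weights gave 1289 reversed and 604 amplified genes. An adjusted p below 0.01 left 4150 called, 2978 blunted, 265 reversed, 690 knockout-only and 93 amplified genes, and a 2-fold interaction left 2831. Counting a response by 2-fold size in place of the adjusted p gave 2619 blunted, 39 reversed, 598 knockout-only and 74 amplified genes. The cause of these differences was not tested.

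With the replicate number as a replicate block 7046 genes were called, of which 4665 were blunted, 770 reversed, 1161 knockout-only and 308 amplified. Same-numbered libraries had correlations of their deviations from the group mean between -0.13 and 0.17. With 3 libraries per group, such correlations cannot settle whether the numbers pair the samples. Genes near 0 in untreated skin depend on the pseudocount, and the genotype labels rest on the submitters alone, since Trpv3 RNA was not lower in untreated libraries labelled knockout.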

Other observations

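Further lists added detail to the classes. Of 16 fibroblast and matrix genes 5 were called, each positive, a share under the 39.7% of all genes (median 0.20). Without untreated wild type replicate 3 the calls were 5 positive and 1 negative (median 0.09). The median genotype difference of the list was 1.08 untreated and 1.61 after MC903. Dcn, which encodes the proteoglycan decorin, stood at 504, 492 and 714 FPKM untreated and 159, 183 and 188 after MC903 in wild type, and at 570, 584 and 668 and then 491, 450 and 520 in labelled knockout (1.35 ± 0.21 SE, limma adjusted p = 0.00071). Of 12 endothelial genes 8 were called, each positive (median 0.68). Kdr, the main VEGF receptor, fell from 5.73, 5.66 and 6.69 to 1.81, 1.88 and 1.55 in wild type and stood at 5.53, 5.75 and 6.70 and then 5.33, 5.94 and 6.73 in labelled knockout (1.54 ± 0.16 SE, limma adjusted p = 8.9e-05). In labelled knockout its untreated and MC903 libraries overlapped.

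T cell genes did not share a direction. Trdc, the constant segment of the T cell receptor delta chain, fell from 5.81, 5.61 and 2.14 FPKM to 0.449, 0.764 and 0.416 in wild type and stood between 1.63 and 2.65 in labelled knockout of either condition (2.10 ± 0.41 SE, limma adjusted p = 0.0026). Trbc2, a constant segment of the beta chain, went from 9.15, 10.7 and 5.82 to 47, 34.8 and 42 in wild type and from 9.91, 11.4 and 7.29 to 13.8, 20.1 and 16.5 in labelled knockout (-1.44 ± 0.32 SE, limma adjusted p = 0.0049). Of 13 genes of this list 4 were called, against 39.7% of all genes. After scaling to TPM 5 cytosolic ribosomal protein genes of 23 were negative and 1 positive (median -0.11), whereas on the deposited scale 11 were negative, all blunted rises (median -0.39), among them Rpl8 at 1149, 897.3 and 1095 in MC903 wild type and 573.6, 605.1 and 527.3 in MC903 labelled knockout.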
